A study of Homo sapiens with 6 samples.

Results

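The HOX genes of RKO cells were described under a short hairpin RNA that targets TRIM21 and under a scrambled hairpin. RKO is an established human cell line that was derived from a colon carcinoma of poor differentiation. Members were chosen by symbol, taking all rows named HOX with a cluster letter from A to D and a number. This took 39 of 28278 rows, with 11 in HOXA on chromosome 7, 10 in HOXB on chromosome 17, 9 in HOXC on chromosome 12 and 9 in HOXD on chromosome 2. The 3 shTRIM21 libraries came from cells stably expressing the hairpin against TRIM21, and the 3 shControl libraries from cells stably expressing the scrambled one. Both hairpins were delivered by lentivirus, and both kinds of cells were selected with puromycin at 5 µg/ml from 36 h after infection. Total RNA was depleted of ribosomal RNA before sequencing. How many hairpin sequences or separate infections stand behind each group is not given in the sources used here, so p-values measure the spread between these libraries.

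HOX genes encode homeodomain transcription factors that lie in 4 clusters, ordered by paralog number along the chromosome. In embryos, low numbers act towards the head and high numbers towards the tail, and members of the same number in different clusters are close relatives. MLL complexes keep active HOX chromatin open, Polycomb complexes silence the rest, and the clusters also hold antisense RNAs and the miR-10 and miR-196 microRNAs. Adult gut epithelium and many tumours retain HOX expression. The family as a whole was selected on its counts in the shTRIM21 and shControl libraries, which were already known, so the counts of called members below describe this contrast and support nothing further.

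The miR-196 microRNAs are shown because they lie inside the HOX clusters, and HOXB8, whose level fell, carries a long match to them. miR-196a comes from loci in HOXB and HOXC, miR-196b from HOXA and miR-10a from HOXB. The mature RNAs are given 5′ to 3′ from RefSeq on GRCh38.p14, with the seed, bases 2 to 8, in capitals.
hsa-miR-196a-5p (chr17:48632532-48632553, minus strand, and chr12:53991762-53991783, plus strand): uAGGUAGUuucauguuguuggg
hsa-miR-196b-5p (chr7:27169528-27169549, minus strand): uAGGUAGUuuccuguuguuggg
hsa-miR-10a-5p (chr17:48579904-48579926, minus strand): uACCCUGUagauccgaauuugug
The miR-196 RNAs share the seed AGGUAGU, while miR-10a has the seed ACCCUGU.

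The 3′ UTR of HOXB8 in GENCODE release 29 holds a site that pairs with miR-196a over 21 of 22 bases. In mouse embryos, miR-196a is known to direct cleavage of Hoxb8 mRNA at such a site. Capitals mark bases in A:U or G:C pairs, the only pairs counted in these matches. The lower-case g faces the U at position 5 of the microRNA, a G:U wobble pair that was not counted.
HOXB8 (chr17:48612770-48612791, minus strand): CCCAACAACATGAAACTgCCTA
The next best matches among HOX 3′ UTRs paired over 15 of 22 bases. They were in HOXA7, HOXA9 and HOXB4.

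The seed match ACTACCT, read on the sense strand, was present in the 3′ UTRs of 9 of 39 members, among them HOXA5, HOXA7, HOXA9, HOXB1, HOXB6, HOXB7, HOXB13 and HOXC8. Of the 12832 tested genes with a 3′ UTR, 7.9% held it. Members that held it and were not called include HOXC8, HOXA5, HOXB13, HOXA9 and HOXA7. Their log2 fold changes of shTRIM21 over shControl were 0.47, 0.29, 0.06, 0.00 and -0.19. The sites of the HOXB members that fell and 1 of the 4 sites in HOXA7 are given with the match in capitals.
HOXB6 (chr17:48595934-48595955, minus strand): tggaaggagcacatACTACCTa
HOXB7 (chr17:48607614-48607635, minus strand): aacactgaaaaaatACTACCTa
HOXA7 (chr7:27154430-27154451, minus strand): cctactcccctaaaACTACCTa
Of the 8 members called lower, 2 held the word, and of the 29 tested members with a 3′ UTR, 8 did. The miR-10 match ACAGGGT was in 3 members, HOXA3 and HOXB3 among them, and in 14.4% of tested genes. A match is a description of these letters, and mature microRNAs were not measured here.

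Total counts ran from 33499827 to 44466137 per library. Ribosomal RNA rows took 17.0% to 23.5% of counts in shTRIM21 and 14.7% to 36.9% in shControl, so levels are given as CPM, counts scaled to a common library size with TMM factors, which limit the pull of a few very abundant rows. TRIM21 itself had 299, 271 and 297 counts in shTRIM21, against 459, 421 and 343 counts in shControl. Its log2 fold change was -0.54 (SE 0.12; edgeR quasi-likelihood adjusted p = 0.00424), a 1.46-fold lower level, and the groups did not overlap. It was not called with library sizes alone (edgeR adjusted p = 0.197, the highest over 16 settings, the lowest being 0.000399). Across the 15131 genes tested, 3146 were called at an adjusted p under 0.05.

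Of the 39 HOX genes, 29 passed the filter on low counts. In shTRIM21 cells 8 fell and 1 rose relative to shControl cells, and 20 were not called. The lower genes were HOXB2, HOXB3, HOXB4, HOXB6, HOXB7, HOXB8, HOXB9 and HOXA11, and the higher one was HOXC10. Over all tested genes, 11.0% were called lower, 9.77% higher and 20.8% in either direction, while 31.0% of the tested HOX genes were called. Groups were apart with shTRIM21 below shControl for 10 HOX genes, beside 19.0% of all tested genes, and with shTRIM21 above shControl for 3 HOX genes, beside 18.7%. The 3 were HOXA5, HOXC10 and HOXD3. The median log2 fold change of the tested HOX genes was -0.19, against 0.01 for all tested genes. With library sizes alone as the scale, the HOX median was 0.01 and that of all genes 0.22, so the direction of the HOX median flips there while its distance from all genes was -0.21. In RNA from a whole culture, fewer cells that express a gene and less RNA per cell cannot be told apart.

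**Figure D1:**
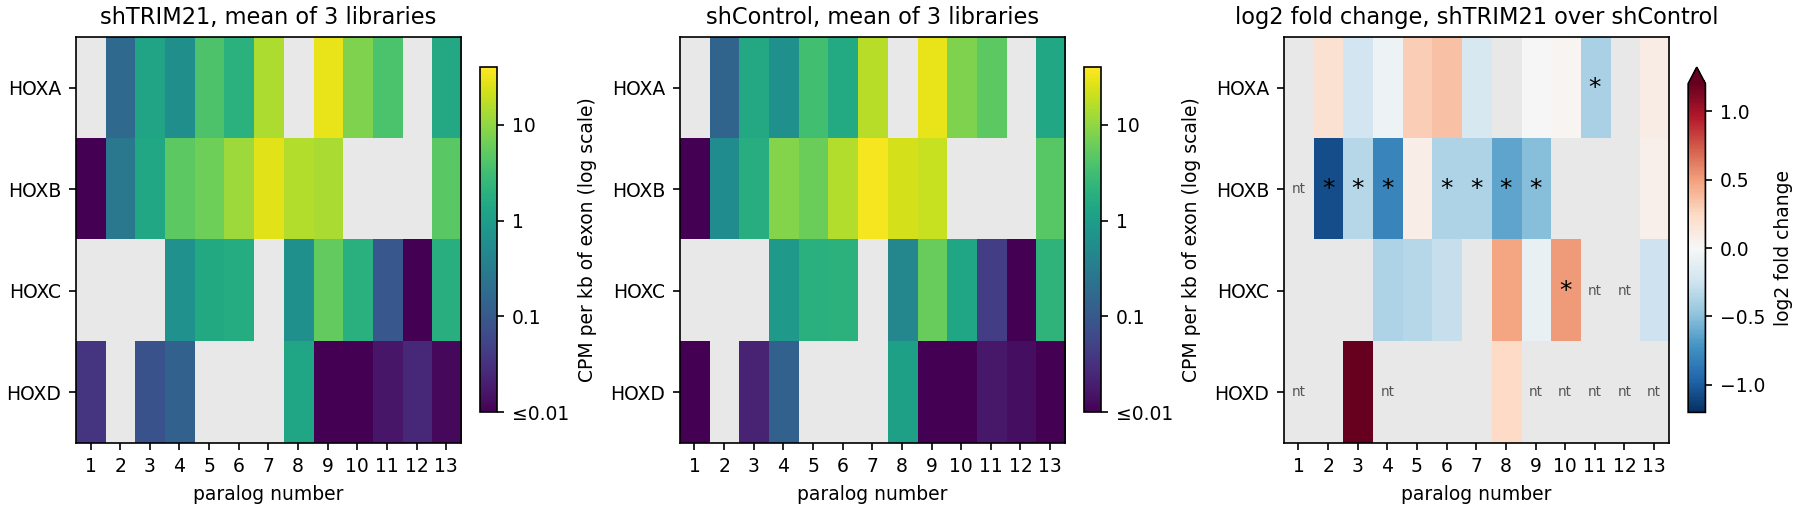
HOX levels and changes by cluster (rows) and paralog number (columns). The left and middle panels give the mean CPM per kilobase of exon of 3 shTRIM21 and 3 shControl libraries on a log colour scale, and the right panel the log2 fold change of shTRIM21 over shControl. Asterisks mark an adjusted p under 0.05, nt marks members not tested, grey fields have no value shown, and HOXD3 at 1.79 lies beyond the colour scale. The called fields fill most of the HOXB row, where 7 of 9 tested members fell.

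The summed level of all HOX genes was 426 ± 3.72 CPM in shTRIM21 libraries and 503 ± 9.56 CPM in shControl libraries (SD, n = 3 each). HOXB alone summed to 199 ± 5.76 CPM in shTRIM21 and 268 ± 8.39 CPM in shControl, so the shTRIM21 sum was 74.1% of the shControl sum. HOXA summed to 192 ± 2.00 CPM in shTRIM21 and 199 ± 2.28 CPM in shControl. HOXC summed to 30.7 ± 1.69 CPM in shTRIM21 and 32.9 ± 2.60 CPM in shControl. HOXD was the least abundant cluster, with 4.08 ± 0.18 CPM in shTRIM21 and 3.24 ± 0.29 CPM in shControl. Most of the difference in the HOX sum therefore lay in the HOXB rows.

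A ratio of counts within a library needs no scaling between libraries. HOXB2 to HOXB9 together had 0.769, 0.801 and 0.840 counts per count of HOXA, HOXC and HOXD in shTRIM21, against 1.06, 1.12 and 1.05 in shControl. All 3 shTRIM21 ratios were below all 3 shControl ratios. HOXB4 had 0.1903, 0.2003 and 0.2125 counts per HOXA9 count in shTRIM21, against 0.318, 0.404 and 0.327 in shControl. HOXB8 had 0.329, 0.347 and 0.337 counts per HOXA9 count in shTRIM21, against 0.508, 0.551 and 0.516 in shControl. Neither of these ratios overlapped between groups. The genes in these ratios were picked after their values were seen, so no test is given.

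In the HOXB cluster, 9 of 10 members were tested and 7 fell, with a median log2 fold change of -0.37. The members that fell were 7 of the 8 from HOXB2 to HOXB9, whose median was -0.44. HOXB5 and HOXB13 were not called, and HOXB1 was listed at 0 in all 6 libraries.

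HOXB4, known for its ability to expand blood stem cells, had 18.6, 17.97 and 18.8 CPM in shTRIM21, against 30.1, 35.2 and 30.6 CPM in shControl. The 3 shTRIM21 libraries lay within 1 CPM of each other and well below every shControl library. The log2 fold change was -0.79 (SE 0.08; edgeR adjusted p = 6.638e-06), and HOXB4 was 1.73-fold lower. Of all tested genes, 4.40% had a larger change in either direction. Part of the HOXB4 exon sequence, 17.1% in GENCODE release 29, is shared with AC103702.1 (482 bases), HOXB3 (159 bases) and MIR10A (110 bases).

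HOXB8, the gene with the long miR-196a match, had 32.1, 31.1 and 29.9 CPM in shTRIM21, against 48.1, 48.1 and 48.3 CPM in shControl. Its log2 fold change was -0.63 (SE 0.06; edgeR adjusted p = 4.406e-06), a 1.55-fold lower level. The shControl libraries differed by less than 1 CPM, and the groups were far apart. No exon base of HOXB8 is shared with another gene of the annotation, and the same holds for HOXB7, HOXB9 and HOXB13.

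HOXB9, a posterior member also studied in tumour invasion, had 32.2, 35.4 and 38.4 CPM in shTRIM21, against 50.3, 53.7 and 47.6 CPM in shControl. It fell by 0.52 on the log2 scale (SE 0.07; edgeR adjusted p = 0.000191), 1.43-fold lower. Its highest shTRIM21 library was below its lowest shControl library.

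HOXB7 was the most abundant HOXB member per kilobase of exon, at 27.5 ± 1.55 CPM per kb in shTRIM21 and 35.6 ± 3.03 CPM per kb in shControl. Before length correction it had 42.3, 39.6 and 44.3 CPM in shTRIM21, against 57.2, 57.0 and 49.1 CPM in shControl. It fell by 0.37 on the log2 scale (SE 0.07; edgeR adjusted p = 0.00202). The groups did not overlap, although the lowest shControl library came close to the shTRIM21 range.

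HOXB6, which takes part in limb, skin and blood development, had 30.6, 30.0 and 32.5 CPM in shTRIM21, against 39.9, 40.7 and 40.1 CPM in shControl. Its log2 fold change was also -0.37 (SE 0.06; edgeR adjusted p = 0.000765), and both groups were tight and apart. HOXB6 shares 32.9% of its exon bases with HOXB3 and the antisense gene HOXB-AS3. HOXB-AS3 itself had 234, 342 and 276 counts in shTRIM21, against 307, 256 and 275 in shControl, with a log2 fold change of -0.03 (95% interval -0.31 to 0.26).

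At the low-number end of HOXB the counts were smaller. HOXB3 had 326, 434 and 435 counts in shTRIM21, against 459, 482 and 517 counts in shControl, which gave 8.69, 11.1 and 11.5 CPM against 12.2, 13.1 and 14.3 CPM. The log2 fold change was -0.34 (SE 0.11; edgeR adjusted p = 0.0474). The groups were apart by a narrow margin. HOXB2, with HOXA2 a regulator of hindbrain segments, had 20, 29 and 24 counts in shTRIM21, against 31, 72 and 44 counts in shControl. HOXB2 had the largest change among the called HOX genes, -1.06 (SE 0.35; edgeR adjusted p = 0.0459), at 0.64 ± 0.10 CPM in shTRIM21 and 1.33 ± 0.58 CPM in shControl. The shControl libraries of HOXB2 spread widely, and the lowest was close to the shTRIM21 range.

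HOXB5, which lies between HOXB4 and HOXB6, had 459, 568 and 488 counts in shTRIM21, against 569, 338 and 480 counts in shControl. Its log2 fold change was 0.08 (95% interval -0.22 to 0.38), and the groups overlapped, with a wide spread among the shControl libraries. HOXB13, the posterior member expressed in prostate and distal gut, had 618, 663 and 614 counts in shTRIM21, against 668, 571 and 519 counts in shControl. Its log2 fold change was 0.06 (95% interval -0.14 to 0.26), and the groups overlapped. HOXB13 stands apart on the chromosome, with its midpoint 198 kb from the low-number end of the cluster, whereas HOXB9 is at 95.2 kb. The intervals of both genes lie above the fold change of HOXB4.

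**Figure D2:**
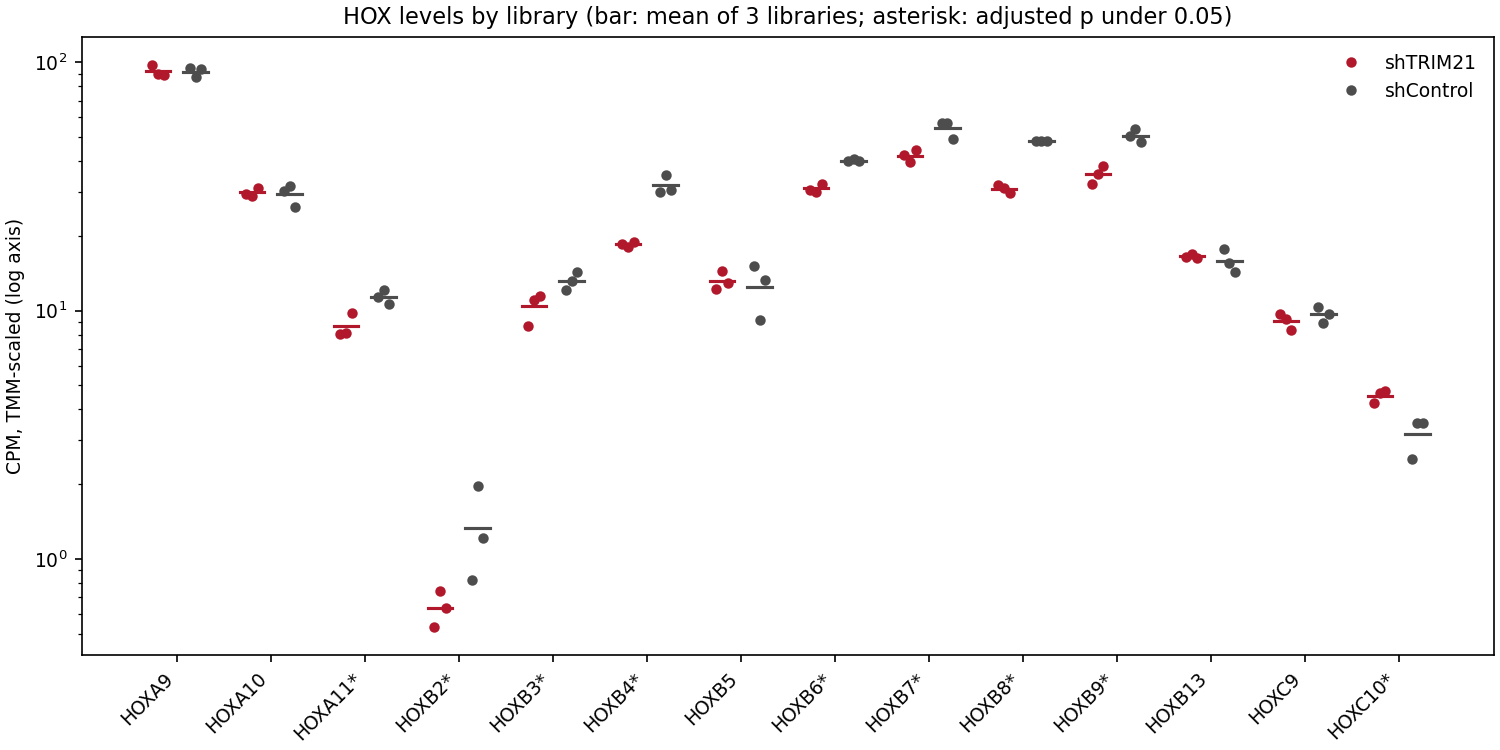
TMM-scaled CPM on a log axis for the called HOX genes and for abundant members that were not called. Each point is a library, red for shTRIM21 and grey for shControl, bars are means of 3 libraries and asterisks mark an adjusted p under 0.05. For HOXB4 the shTRIM21 points sit near 18.5 CPM and the shControl points near 32.0 CPM, while the HOXA9 points lie together near 92 CPM in both groups.

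All 11 HOXA members were tested and 1 was called, with a cluster median of 0.00. HOXA9, a factor known for its role in MLL-driven leukaemia, was the most abundant HOXA gene, at 30.4 ± 1.64 CPM per kb in shTRIM21 and 30.3 ± 1.32 CPM per kb in shControl. It had 97.8, 89.7 and 88.7 CPM in shTRIM21, against 94.6, 87.3 and 93.7 CPM in shControl. The groups overlapped fully, with a log2 fold change of 0.00 (95% interval -0.12 to 0.13). HOXA10 had 29.6, 29.1 and 31.3 CPM in shTRIM21, against 30.4, 31.8 and 26.1 CPM in shControl, again overlapping, and its log2 fold change was 0.03 (95% interval -0.14 to 0.20). A readthrough row named HOXA10-HOXA9 covers both genes, and reads may be divided between the 3 rows. That row had 2485, 2334 and 2148 counts in shTRIM21, against 2398, 2129 and 2223 in shControl.

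HOXA11, which patterns the forearm, kidney and uterus, was the called HOXA gene. It had 8.08, 8.09 and 9.80 CPM in shTRIM21, against 11.4, 12.1 and 10.6 CPM in shControl. The groups were apart, with a log2 fold change of -0.39 (SE 0.11; edgeR adjusted p = 0.0187) and a 1.31-fold lower level. HOXA11 shares 31.1% of its exon bases with the antisense gene HOXA11-AS, which had 19, 32 and 29 counts in shTRIM21, against 25, 26 and 7 in shControl.

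HOXA7 and HOXA3 had groups that were apart but missed the threshold. HOXA7 had 32.99, 36.6 and 35.0 CPM in shTRIM21, against 37.5, 43.4 and 38.7 CPM in shControl, with a log2 fold change of -0.19 (SE 0.07; edgeR adjusted p = 0.0702). Over a majority of its exon bases, 62.5%, HOXA7 overlaps the antisense gene HOXA-AS3. HOXA-AS3 had 936, 1082 and 941 counts in shTRIM21, against 1053, 1136 and 1025 in shControl, and a log2 fold change of -0.17 (edgeR adjusted p = 0.124). Without strand information the reads of this pair cannot be told apart. HOXA3 had a log2 fold change of -0.23 (edgeR adjusted p = 0.196).

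Other HOXA genes lay on both sides of 0. HOXA5, known for holding back stem cell features in gut epithelium, had 6.72, 6.77 and 6.76 CPM in shTRIM21, against 6.07, 4.71 and 5.77 CPM in shControl. The groups did not overlap, with a log2 fold change of 0.29 (95% interval 0.02 to 0.57), but the edgeR adjusted p was 0.126. Log2 fold changes of 0.35 for HOXA6, 0.19 for HOXA2, 0.09 for HOXA13 and -0.06 for HOXA4 had 95% intervals that spanned 0.

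In HOXC, 7 of 9 members were tested and 1 rose, with a median log2 fold change of -0.25. HOXC10, a posterior gene active in hindlimb, had 159, 182 and 180 counts in shTRIM21, against 95, 129 and 128 counts in shControl, or 4.55 ± 0.27 CPM in shTRIM21 and 3.19 ± 0.58 CPM in shControl (SD, n = 3 each). The groups were apart and HOXC10 was 1.43-fold higher, a log2 fold change of 0.51 (SE 0.17; edgeR adjusted p = 0.0419). HOXC9 was the most abundant HOXC gene per kilobase, at 5.42 ± 0.40 CPM per kb in shTRIM21 and 5.76 ± 0.42 CPM per kb in shControl. It had 363, 363 and 316 counts in shTRIM21, against 391, 329 and 352 counts in shControl, so the groups overlapped, and the log2 fold change was -0.09 (95% interval -0.31 to 0.14).

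HOXC4, HOXC5 and HOXC6 share a RefSeq start at chr12:54016888 on the plus strand, and their rows hold shared exons. Their log2 fold changes were -0.37, -0.35 and -0.28, none of them called, and the groups overlapped for all 3. HOXC13, a hair and nail gene, had a log2 fold change of -0.25 (95% interval -0.60 to 0.10). HOXC8, which patterns the thorax, had 63, 39 and 38 counts in shTRIM21, against 45, 22 and 31 counts in shControl, and a log2 fold change of 0.47 with a 95% interval of -0.24 to 1.18. HOXC11 was below the filter, with 17, 12 and 7 counts in shTRIM21, against 2, 9 and 5 counts in shControl. HOXC12 was listed at 0 in all 6 libraries.

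HOXD was close to silent. HOXD8 was the only HOXD gene above 1 CPM, with 126, 144 and 120 counts in shTRIM21, against 108, 119 and 93 counts in shControl, or 1.29 ± 0.10 CPM per kb in shTRIM21 and 1.10 ± 0.13 CPM per kb in shControl. Its log2 fold change was 0.24 (95% interval -0.13 to 0.60), and the groups overlapped. HOXD3 had 10, 11 and 12 counts in shTRIM21, against 8, 0 and 1 counts in shControl. The groups were apart by a few counts, the log2 fold change of 1.79 had a 95% interval of 0.21 to 3.37, and HOXD3 was not called (edgeR adjusted p = 0.101). Of the 9 shControl counts, 8 were in library 1, and without that library HOXD3 was called higher (edgeR adjusted p = 0.0135, the lowest over the 16 settings, the highest being 0.280). It was called under 2 of those settings. HOXD3 also shares 74.1% of its exon bases with other transcripts. The other 7 HOXD genes were below the filter with at most 10 counts in any library, HOXD4 being the highest at 7, 5 and 10 counts in shTRIM21, against 7, 5 and 9 in shControl.

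Along the clusters, members of 1 to 3 had a median log2 fold change of -0.28, with 2 of 6 tested called lower. Members 4 to 8 had a median of -0.23, with 4 of 14 called lower. Members 9 to 13 had a median of 0.00, with 2 of 9 called lower and 1 higher. Over all tested genes, 11.0% were called lower and 9.77% higher. All the lower genes in these ranges but HOXA11 were HOXB genes, so the ranges are not separate from the HOXB fall. Within a paralog number the clusters differed in value. Paralog 9 holds HOXB9 at -0.52, HOXA9 at 0.00 and HOXC9 at -0.09. Paralog 8 holds HOXB8 at -0.63, HOXC8 at 0.47 and HOXD8 at 0.24. Paralog 4 holds HOXB4 at -0.79, HOXC4 at -0.37 and HOXA4 at -0.06. These 3 groups were picked after their values were seen. Over the 9 paralog numbers with a tested HOXB gene and another tested member, the HOXB gene was the lowest in 7. In the other 2 it was not, with HOXB5 at 0.08 beside HOXC5 at -0.35, and HOXB13 at 0.06 beside HOXC13 at -0.25. The difference between clusters was not tested, since the clusters were set apart with these values known.

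**Figure D3:**
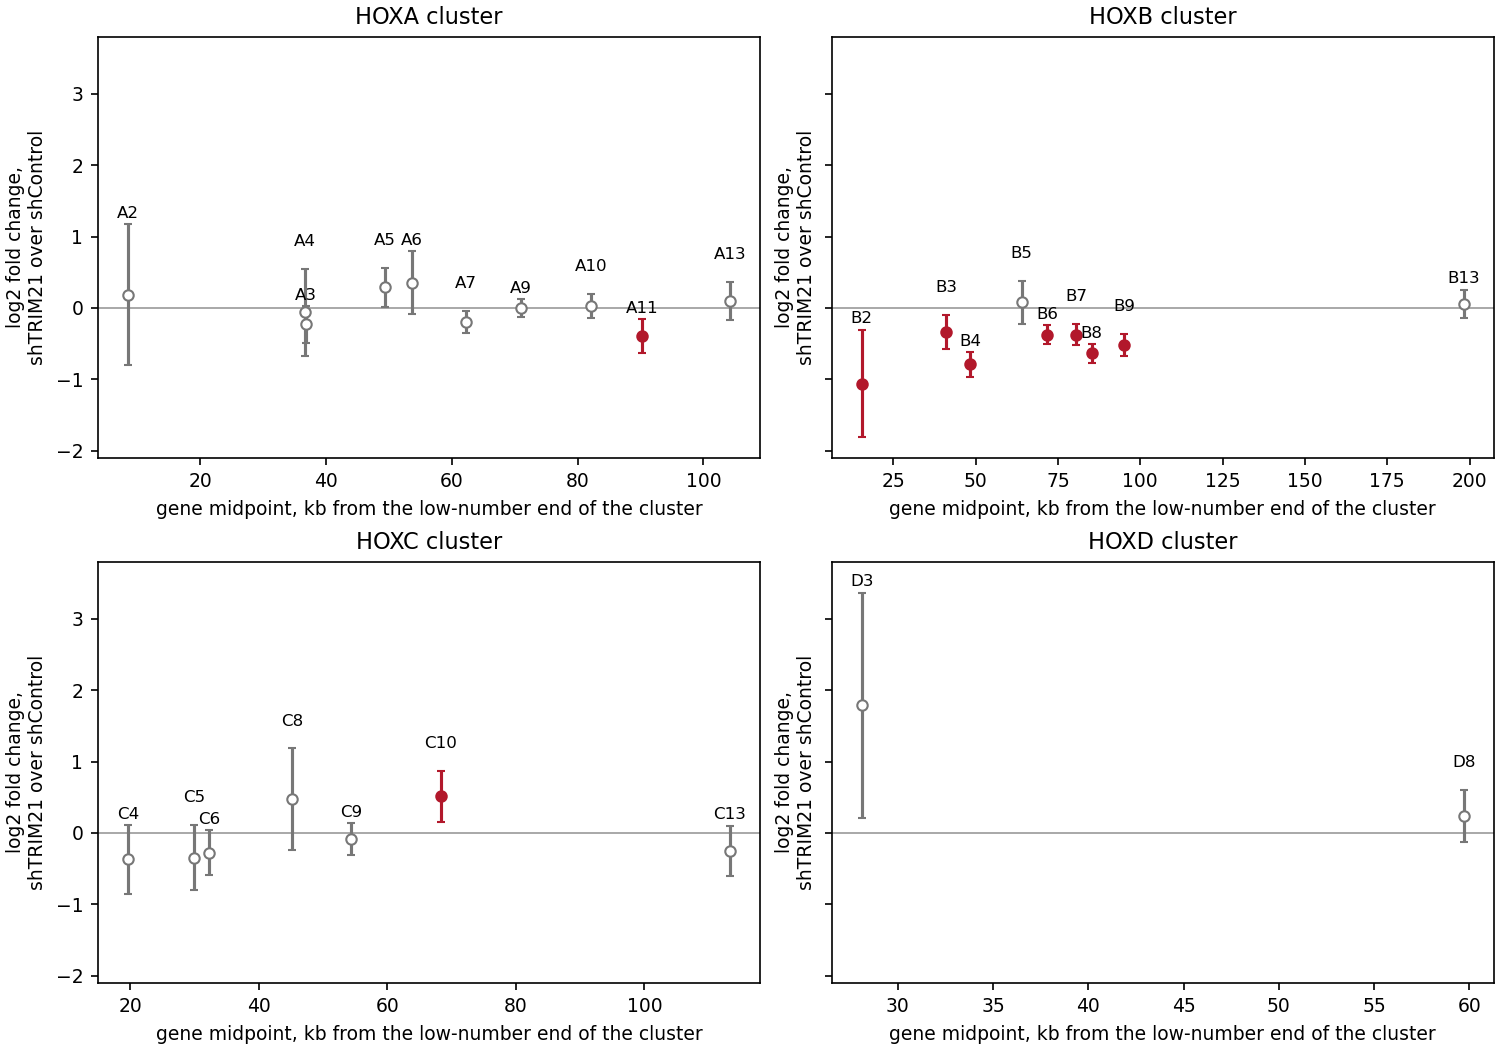
Log2 fold change of shTRIM21 over shControl with its 95% interval for tested HOX genes, against the distance of the gene's midpoint from the low-number end of its cluster in kilobases. Filled red points have an adjusted p under 0.05 and open points do not. Called genes run from HOXB2 at 15.4 kb to HOXB9 at 95.2 kb in HOXB, with HOXB5 the open point between them.

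Ordered by level per kilobase, HOXB7 led in shControl, followed by HOXA9, HOXB8, HOXB9 and HOXA7. In shTRIM21 HOXA9 led, followed by HOXB7, HOXB8, HOXA7 and HOXB9. HOXB7 and HOXA9 were at 27.5 ± 1.55 and 30.4 ± 1.64 CPM per kb in shTRIM21, and at 35.6 ± 3.03 and 30.3 ± 1.32 CPM per kb in shControl. Their SDs thus reached each other in shTRIM21 but not in shControl. HOXB8, at 15.1 ± 0.55 CPM per kb in shTRIM21 and 23.5 ± 0.06 CPM per kb in shControl, was clear of HOXA9 above it and HOXB9 below it in shControl. In shTRIM21 the SDs of HOXB8, HOXA7 (14.5 ± 0.75 CPM per kb) and HOXB9 (13.7 ± 1.19 CPM per kb) reached each other.

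Several calls rested on single libraries or on the scaling. HOXB4 was called under all 16 alternative settings, with log2 fold changes from -0.94 to -0.59 and adjusted p from 1.381e-16 to 0.00603. HOXB6, HOXB7, HOXB8 and HOXB9 were called under 15 of 16. The exception was library sizes alone, where their adjusted p were 0.523, 0.506, 0.0602 and 0.189. Their lowest adjusted p over the settings were 6.922e-06, 4.524e-05, 2.809e-17 and 9.444e-09. HOXA11 was called under 11, HOXC10 under 10, and HOXB2 and HOXB3 under 8 each. Leaving out shTRIM21 library 1, shTRIM21 library 2 or shControl library 2 brought the lower HOX genes to 5, namely HOXB4, HOXB6, HOXB7, HOXB8 and HOXB9. HOXC10 was not called without shTRIM21 library 1, 2 or 3 or without shControl library 1 or 3. HOXB2 was not called without any single library other than shControl library 1, and HOXB3 not without shTRIM21 library 1 or 2 or shControl library 2 or 3.

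**Figure D4:**
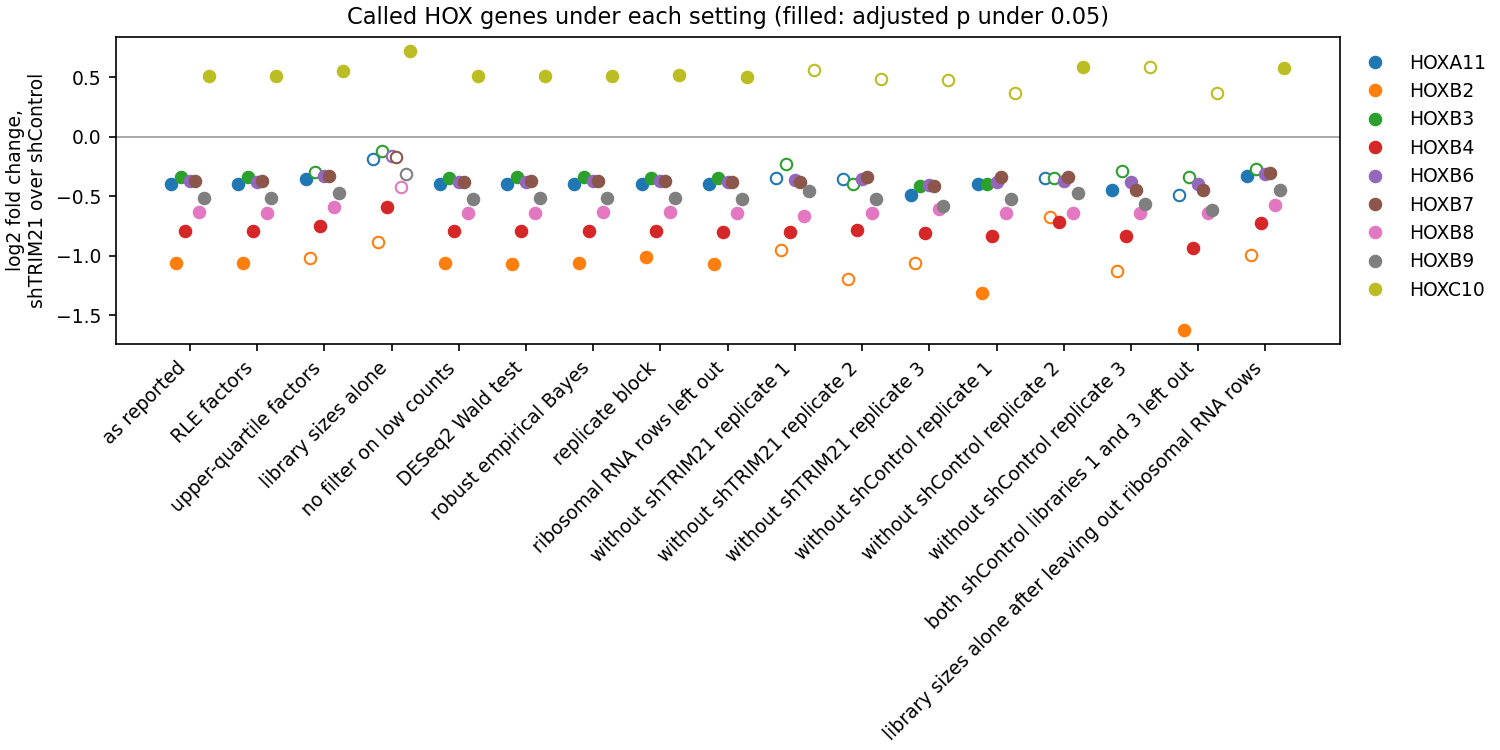
Log2 fold change of the 9 called HOX genes as reported and under 16 alternative settings, filled where the adjusted p was under 0.05. HOXB4 is filled throughout and stays between -0.94 and -0.59. With library sizes alone, the lower genes other than HOXB4 are open.

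Among the other genes within the clusters, none of the tested rows was called. The antisense gene HOXB-AS1, between HOXB2 and HOXB3, had 32, 47 and 43 counts in shTRIM21, against 61, 60 and 64 counts in shControl. Its groups did not overlap, and its log2 fold change was -0.65 (edgeR adjusted p = 0.0828). HOTAIRM1, a non-coding RNA of HOXA, had a log2 fold change of -0.40 (edgeR adjusted p = 0.152). The MIR196B row had 54, 47 and 56 counts in shTRIM21, against 33, 33 and 14 counts in shControl, with a log2 fold change of 0.93 (edgeR adjusted p = 0.0594). It was called under 3 of the 16 alternative settings. This row covers 84 bases within HOXA10-HOXA9, so its reads can come from the host transcripts, and it is no measure of the mature microRNA. The rows of the miR-196a loci were below the filter. MIR196A1 in HOXB had 1, 2 and 0 counts in shTRIM21, against 2, 0 and 1 in shControl. MIR196A2 in HOXC was listed at 0 in all 6 libraries. MIR10A had 0 counts in every library but shControl library 1, where it had 1. These rows do not measure mature microRNAs either. HOTAIR in HOXC was below the filter, with 9, 9 and 9 counts in shTRIM21, against 3, 10 and 12 in shControl.

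Around the clusters, the 3 nearest protein-coding genes on each side were read as well. Of 22 tested neighbours 1 was higher and 4 were lower, so 22.7% were called, close to the 20.8% over all tested genes. SKAP1, 83.5 kb beyond the low-number end of HOXB, had 170, 163 and 131 counts in shTRIM21, against 215, 208 and 183 in shControl, and fell by 0.43 on the log2 scale (edgeR adjusted p = 0.0483). TTLL6, 33.5 kb beyond HOXB13, had 22, 25 and 31 counts in shTRIM21, against 8, 10 and 15 in shControl, and rose with a log2 fold change of 1.18 (edgeR adjusted p = 0.0460). Beside HOXA, SKAP2 and TAX1BP1 fell by 0.24 and 0.27 on the log2 scale. ATP5MC2 beside HOXC fell by 0.18. The other 4 neighbours of HOXB were not called. Over the 16 alternative settings, SKAP1 was called under 6, TTLL6 and SKAP2 under 7 each, ATP5MC2 under 8 and TAX1BP1 under 13. Neither SKAP1 nor TTLL6 was called with DESeq2.

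Regulators and partners of HOX genes were read as lists, each beside the background of 9.77% called higher and 11.0% called lower. Of 14 MLL and DOT1L activators, 1 was higher (PSIP1, 0.18) and 2 lower (ASH1L, -0.28, and WDR5, -0.19). Of 21 Polycomb repressors, 1 was higher (PHC1, 0.30) and 3 were lower (BMI1, -0.25, PHF1, -0.34, and PHF19, -0.24). Medians of these lists were -0.08 and -0.06. Over the 16 settings PSIP1 was called under 10, WDR5 under 8 and PHF19 under 11. Of 9 tested TALE cofactors, the homeodomain proteins that bind DNA with HOX proteins, 2 were higher and 0 lower. Among the higher ones, MEIS3 had 483, 481 and 492 counts in shTRIM21, against 394, 296 and 335 in shControl, a log2 fold change of 0.46 (edgeR adjusted p = 0.00679).

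Retinoic acid is a classical inducer of low-number HOX genes, and 1 of 11 tested genes of its pathway was higher and 4 were lower. CRABP2, a carrier of retinoic acid, was higher by 0.41 on the log2 scale. Among the 4 lower genes were RXRB (-0.23), RARG (-0.18) and ALDH1A3 (-0.17). Of 9 CTCF and cohesin genes, which organise HOX domains, 0 were higher and 2 lower (SMC1A, -0.21, and MAZ, -0.16, called under 13 and 6 of 16 settings). Of 6 tested ParaHox and other linked homeobox genes, 1 was lower (GBX2, -0.50). CDX2, the intestinal homeobox factor that acts on HOX genes, had 776, 934 and 818 counts in shTRIM21, against 866, 803 and 781 in shControl, while CDX1 was listed at 0.

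Markers of other cells were checked beside the HOX values, against the same background of 9.77% called higher and 11.0% called lower. Of 8 epithelial markers, 3 were higher (CDH1, ELF3 and ESRP1) and 2 lower (KRT8 and KRT18), with a median log2 fold change of 0.14. Their summed levels were 4088 to 4311 CPM in shTRIM21 and 5095 to 5647 CPM in shControl. Most of this sum was KRT8 and KRT18. Their means were 2501 and 944 CPM in shTRIM21, and 3384 and 1300 CPM in shControl. Of 9 intestinal markers, 4 were tested and 0 called, with CDX1 and FABP1 listed at 0. Neural and neuroendocrine markers, 5 of 8 tested and 3 higher (ENO2, MAP2 and TUBB3), summed to 258 to 266 CPM in shTRIM21 and 192 to 216 CPM in shControl. TUBB3 was called under 13 of 16 alternative settings, and ENO2 and MAP2 under all 16. Fibroblast markers, 2 of 8 tested and 0 called, summed to 10.5 to 11.1 CPM in shTRIM21 and 6.15 to 9.19 CPM in shControl, with DCN, LUM and POSTN listed at 0. Most of that sum was COL1A1, at a mean of 10.2 CPM in shTRIM21 and 7.88 CPM in shControl. Leukocyte markers, 1 of 8 tested, summed to 6.31 to 7.33 CPM in shTRIM21 and 7.62 to 8.88 CPM in shControl, with CD3E listed at 0. CD68 made up most of it, at a mean of 6.08 CPM in shTRIM21 and 7.52 CPM in shControl. Endothelial markers, 1 of 6 tested, summed to under 1 CPM in every library, with CDH5 listed at 0. Their part in the HOX values was not tested.

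RefSeq start windows, 250 bases before to 50 after a start on GRCh38.p14, matched 20 of 39 members with 27 windows. Among the called HOX genes, HOXA11 had one, and its 250 upstream bases are shown for that reason. The window holds none of the 5 motifs searched on both strands.
HOXA11 (chr7:27185233-27185482, minus strand): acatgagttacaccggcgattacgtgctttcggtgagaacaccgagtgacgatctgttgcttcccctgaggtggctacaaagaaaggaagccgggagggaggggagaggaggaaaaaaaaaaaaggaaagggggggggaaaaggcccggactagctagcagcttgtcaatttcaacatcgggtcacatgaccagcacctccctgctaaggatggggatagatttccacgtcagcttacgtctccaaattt
The start shared by HOXC4 and HOXC5, neither of them called, is shown because both rows begin there. Capitals mark its 2 matches to CCAAT, which read as the reverse complement on the gene's strand.
HOXC4 and HOXC5 (chr12:54016638-54016887, plus strand): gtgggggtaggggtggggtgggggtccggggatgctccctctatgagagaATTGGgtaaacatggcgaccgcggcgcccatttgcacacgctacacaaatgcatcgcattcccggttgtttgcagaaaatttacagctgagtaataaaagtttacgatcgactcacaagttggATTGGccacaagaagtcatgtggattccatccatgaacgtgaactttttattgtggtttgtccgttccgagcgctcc
The CCAAT word was in 18 of 27 HOX windows, beside 34.6% of 35097 windows of all genes. The E-box CACGTG was in 9, beside 7.3%, TATAAA in 5, beside 11.5%, the joint TALE and HOX word TGATNNAT in 3, beside 7.4%, and the retinoid word AGGTCA in 0, beside 13.8%. HOX windows held a median of 22 CG dinucleotides, against 14 over all windows. Several of the 27 windows belonged to HOXA3, and the window of HOXC4 and HOXC5 was counted for both. HOXB1 was the only HOXB gene among them. These shares therefore do not describe HOX promoters as a whole.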

How the data were processed

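The members and gene lists were chosen with earlier results of these data known. The authors deposited raw, unnormalized counts, with 28278 gene symbols for each library. Per the submitters' processing notes, TopHat2, edgeR 3.38.1, limma 3.52.2 and hg38 were used, in roles not stated. How reads were counted, on which annotation and whether by strand is not given in the sources used here, so a gene and an overlapping partner may share reads: 19 of the 29 tested HOX genes overlap another RefSeq gene, and 14 share over 10% of their exon bases in GENCODE release 29. The source field reads mouse tissue, but organism, cell line and symbols are human.

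Groups came from the sample titles. Counts were fitted with edgeR 4.0.16 (R 4.3.3) on all 6 libraries without a covariate, using filterByExpr (minimum count 10, minimum total 15), TMM scaling, the quasi-likelihood F test and Benjamini-Hochberg adjustment over all 15131 tested genes, and genes were called at an adjusted p under 0.05. SEs are the log2 fold change over the square root of F. CPM are given with SDs (n = 3). An exact permutation test of 3 against 3 cannot go below 0.1. Alternatives were RLE and upper-quartile factors, library sizes alone, no filter, DESeq2 1.42.0, robust empirical Bayes, a replicate block, no ribosomal RNA rows and libraries left out. Over all tested rows, replicates of a group differed beyond counting noise. Ribosomal RNA rows, whose share differed between libraries, were not left out of that comparison, so it does not show how far other genes varied. Named genes are all members, rows inside the clusters, 3 protein-coding neighbours per side, TRIM21 and up to 4 called genes per list. Some genes that these rules and lists take are not reported here. Positions, start windows and microRNAs are from RefSeq (GRCh38.p14), and all 39 members matched. 3′ UTRs and exon lengths are from GENCODE release 29. Figures were drawn with matplotlib 3.10.9.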

Additional observations from a re-analysis of the deposited data

How the results depend on the processing

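As reported, 3146 genes were called, with 8 HOX genes lower, 1 higher and a HOX median of -0.19. Under 16 alternatives, the called HOX genes gave 144 values, of which 113 kept their side of the threshold, 31 were weaker and 0 reversed. With library sizes alone 1969 genes were called (1831 higher and 138 lower, against 1479 and 1667 as reported), with HOXB4 as the 1 lower HOX gene and 2 higher ones (HOXC10 and HOXD3), and the HOX median was 0.0080. Upper-quartile factors gave a HOX median of -0.15 and calls of 1899 higher and 1161 lower. No filter gave -0.035, with 37 HOX genes tested. Library sizes alone after leaving out ribosomal RNA rows, chosen after seeing the data, gave -0.13, with 2292 higher and 1019 lower. Leaving out shControl libraries 1 and 3, those richest in ribosomal RNA, gave 1958 calls and a HOX median of -0.090. The lone shControl library is then assumed to vary like the others. This setting added HOXB5 (0.52) and HOXA7 (-0.32) to the calls and dropped HOXA11, HOXB3 and HOXC10 from them. Leaving out each library in turn gave 1844 to 2592 calls, 5 to 8 lower and 0 to 1 higher HOX genes, and HOX medians of -0.19 to -0.14, and the lowest count of calls came without shTRIM21 library 2.

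Same-numbered libraries did not deviate together (correlations -0.01, 0.01 and -0.08). With 3 libraries per group, this cannot show whether same-numbered libraries were handled together. With the replicate number as a block, 2905 genes were called, the same 9 HOX genes among them, and the HOX median was -0.19.

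Of all 592 values of named genes other than the HOX protein genes, 105 were weaker and 3, all of the MIR196B row, were stronger. Of the 31 called genes outside HOX, 8 were called under every alternative and 8 (ATP5MC2, MAZ, RARG, RXRB, SKAP1, SKAP2, TTLL6 and WDR5) under at most 8 of 16. Reversals concerned uncalled HOX genes in 22 of 320 values and other named genes in 19 of 592. With library sizes alone these were HOXA4 (0.16), HOXA7 (0.0080), HOXC9 (0.13), HOXA-AS3 (0.033), HOXA10-HOXA9 (0.21), HOXB-AS3 (0.19), ATP5MC2 (0.024), WDR5 (0.015), RARG (0.033), ALDH1A3 (0.043) and MAZ (0.057). With upper-quartile factors they were HOXA10-HOXA9 (0.039) and HOXB-AS3 (0.014), and with library sizes after leaving out ribosomal RNA rows HOXA4 (0.0069), HOXA10-HOXA9 (0.062) and HOXB-AS3 (0.038). HOXA9 was at -0.00052 with no filter and at -0.0041 without ribosomal RNA rows. Without shControl libraries 1 and 3, HOXA10 was at -0.090, HOXA2 at -0.18, HOXC4 at 0.00089, HOXC6 at 0.031, HOXC9 at 0.016, HOXA10-HOXA9 at 0.064 and HOXB-AS3 at 0.085. Leaving out each library in turn gave -0.044 to 0.028 for HOXA9, -0.058 to 0.083 for HOXA10, -0.16 to 0.40 for HOXA2, -0.27 to 0.067 for HOXA4, -0.010 to 0.19 for HOXA13, -0.10 to 0.23 for HOXB5, -0.014 to 0.15 for HOXB13, -0.069 to 0.045 for HOXA10-HOXA9 and -0.17 to 0.082 for HOXB-AS3. The causes were not tested.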
